A study of Populus alba x Populus glandulosa with 9 samples.

Results

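Among the genes measured in stems of 84K poplar, the most abundant ones whose level varied little along the stem were examined. From the deposited FPKM values, the 200 genes with the highest mean over all 9 libraries were taken, all with a mean above 100 FPKM. Of these, 120 were kept because their highest position mean was less than 2 times their lowest, out of 85755 gene identifiers in the table. FPKM is a read count scaled to the length of the gene and to the total of the library. The members were thus selected on their mean FPKM and on the ratio of their position means. Abundance and limited change between positions are therefore properties of the choice and not findings. The word "position-independent" fits these genes only as far as this limit. A test on the read counts with edgeR still called 22 of the 120 between the bottom and the top of the stem, where 27.3% of all genes tested were called, so they are called the 120 abundant genes here.

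84K poplar, a cross between Populus alba and P. glandulosa, is widely used as a laboratory tree. All 9 libraries came from wild-type stems of the cultivar Poplar 84K, from plants 6 months old and about 200 cm tall. The top was sampled at internodes 2 to 3, the middle at internodes 9 to 10 and the bottom at internodes 14 to 15, with 3 libraries each. Whether those 3 came from separate plants is left unsaid by the labels, so every spread and every call given here reflects the spread between libraries, which may be technical.

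In a growing poplar shoot, the uppermost internodes are still elongating, while lower internodes thicken as the vascular cambium adds wood to the inside and phloem to the outside. Cell types and their shares therefore change down a stem. Transcripts that stay abundant in all parts of a plant organ commonly come from genes that most cells use, such as those for protein synthesis, the cytoskeleton, protein turnover and basic metabolism. Whether any of the 120 genes belongs to such a group cannot be said here, because the tables do not pair identifiers with gene names, functions, sequences or positions. The letter after the prefix of an identifier, A, G or Un, is used only as a class of label. For the same reason the stem label could not be set against marker genes. In whole stem pieces, more cells of a type and more RNA per cell cannot be told apart.

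The libraries held 41434042 to 75217046 counts, every count of a gene being even, and 55282 to 56870 genes had a count. The 120 genes were deeply covered. The lowest count of any of them in any library was 1212. If both mates of a pair were counted, which was not tested, this is 606 read pairs, for which counting alone gives an error of 4.1%. For 88 of the 120 genes, every library held more than 5000 counts. The highest count was 142438, and no member took more than 0.257% of a library.

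The 200 genes ranged in mean level from 253.7 to 5907.5 FPKM. The 120 kept genes spanned this whole range, because both the most abundant gene and the gene at rank 200 met the limit. Of the 120, 14 had a mean above 1000 FPKM, 22 lay between 500 and 1000 FPKM and 84 were at or below 500 FPKM. Their median mean level was 367.2 FPKM, against 408.6 FPKM for the other 80 of the 200. The ratio of the highest to the lowest position mean had a median of 1.44 in the 120 genes, against 3.13 in the other 80. It was also 1.44 over the 45083 genes with a mean above 1 FPKM. In 72 of the 120 genes it was under 1.5, and in 48 it lay from 1.5 to 2. Of all 942 genes with a mean above 100 FPKM, 365 had a ratio of 2 or more.

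**Figure D1:**
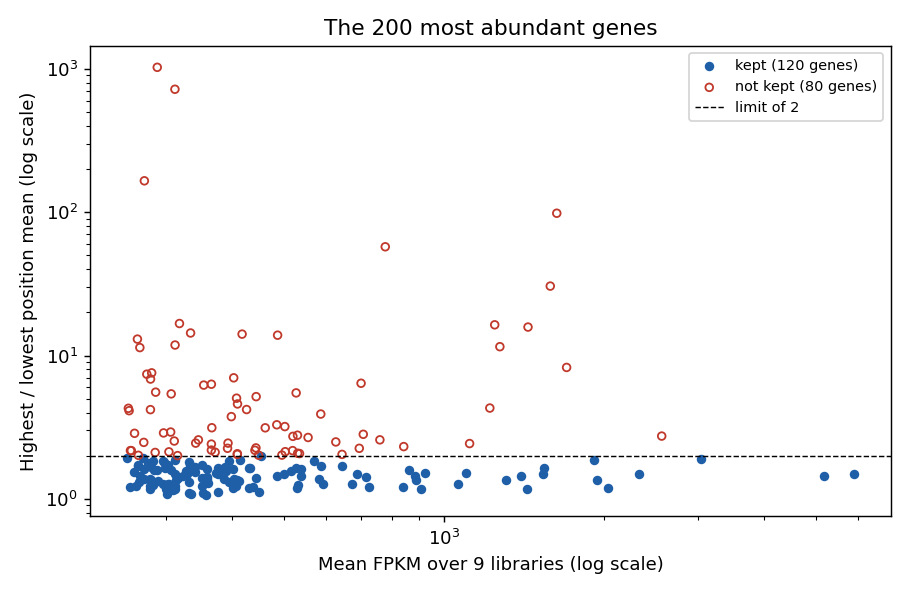
Ratio of the highest to the lowest position mean against the mean FPKM over 9 libraries for the 200 most abundant genes, both on log scales. Filled points are the 120 genes kept, open points the 80 not kept, and the dashed line is the limit of 2; kept genes are found from 253.7 up to 5907.5 FPKM.

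At the limit, small differences decided which genes were kept. Pop_G10G006095 was the gene just inside, with a ratio of 1.997. It had 313.6, 298.5 and 281.3 FPKM in the top libraries, 439.4, 419.6 and 542.4 in the middle and 658.1, 620.1 and 505.9 in the bottom. Its top libraries lay below all the others. Pop_G06G051426 followed at 1.939, with 224.2, 209.1 and 139.9 FPKM in the top libraries, 153.5, 472.9 and 137.2 in the middle ones and 382.4, 398.9 and 330.0 in the bottom. Its middle mean rested mainly on middle library 2. Just outside were Pop_A16G035399 at 2.003 and Pop_A19G053231 at 2.012. For Pop_A19G053231 the SD within a position was 171.4, 133.2 and 205.9 FPKM in top, middle and bottom, around position means of 182.7, 250.0 and 367.5 FPKM.

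At the other limit, the member lowest in abundance was Pop_G08G057759 at 253.7 FPKM, preceded by Pop_A14G045384 at 256.7 FPKM. The next genes in rank that met the ratio were Pop_G18G078724 at 253.3 FPKM and Pop_A06G064824 at 253.0 FPKM. A further 457 genes with a mean above 100 FPKM met the ratio limit below rank 200. The 120 genes are therefore the upper end of a continuous range.

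The most abundant gene of the whole table, Pop_A04G028413, belonged to the 120. It had 4617, 4128 and 4740 FPKM in the top libraries, 4773, 5712 and 9162 in the middle ones and 6114, 7016 and 6905 in the bottom. Its top libraries were below all middle and bottom libraries, and middle library 3 stood above the rest. Pop_G09G014110 came next by mean. It had 9855, 3107 and 4628 FPKM in the top libraries, 6398, 3356 and 2421 in the middle ones and 4360, 5604 and 6963 in the bottom. Its 3 positions overlapped, and it was the highest member in top library 1 while Pop_A04G028413 led in middle library 3. In abundance, the order of these genes thus changed from library to library within a position.

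Pop_G09G077661 averaged 1954 ± 148.4 FPKM in the top libraries, 3483 ± 1404.0 in the middle ones and 3705 ± 249.9 in the bottom (SD, n = 3). Its top libraries were all below its middle and bottom libraries, while middle and bottom overlapped. Pop_A09G014532 had 3648, 1155 and 1503 FPKM in the top libraries, 2751, 1642 and 1479 in the middle ones and 2380, 3360 and 3079 in the bottom, and its positions overlapped. Pop_G04G028297 lay at 1838 ± 138.1, 2197 ± 920.9 and 2074 ± 210.4 FPKM in top, middle and bottom (SD, n = 3). Its means differed by less than the spread of its middle libraries, of which library 3 reached 3257 FPKM. Pop_A10G001121 had 1664 ± 188.8, 1917 ± 378.7 and 2249 ± 130.1 FPKM in top, middle and bottom (SD, n = 3), and its bottom libraries lay above its top libraries.

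In the other 4 of the 10 most abundant, the libraries of the positions overlapped. Pop_G09G051131 had 2860, 734 and 1613 FPKM in the top libraries, 841, 835 and 2517 in the middle ones and 2450, 1950 and 3413 in the bottom. Pop_G10G047989 had 2031, 697 and 680 FPKM in the top libraries, 2268, 1407 and 1162 in the middle ones and 2902, 1028 and 1694 in the bottom. Pop_G10G047987 had 1904, 824 and 824 FPKM in the top libraries, 2622, 1249 and 1129 in the middle ones and 2643, 940 and 1699 in the bottom. Library 1 was the highest of its position in both. Pop_G10G000140 ranged from 959.8 FPKM in middle library 2 to 2191 FPKM in middle library 1, so its extremes were of the same position.

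**Figure D2:**
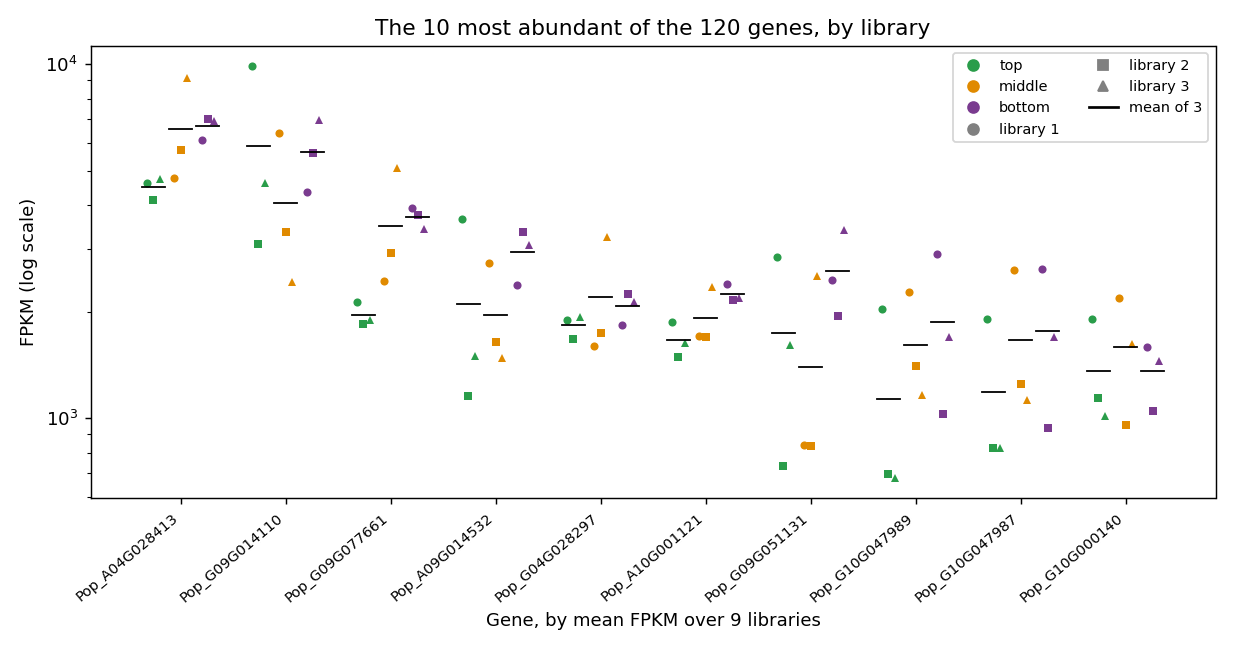
FPKM (log scale) of the 10 most abundant of the 120 genes in each of the 9 libraries, with colour for the stem position, marker shape for the library number and a black bar for the mean of 3. Points of a position often spread as widely as the positions lie apart, as in Pop_G09G014110, from 3107 to 9855 FPKM in the top.

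A small number of genes dominated the group. The first 10 held 27.2% to 40.2% of the summed FPKM of the 120 genes in each library, lowest in top library 2 and highest in bottom library 3. Pop_A04G028413 alone held 5.3% in top library 1 and 11.5% in middle library 3. The 60 most abundant held 71.7% to 77.3%. Of the 120 genes, 84 to 110 were among the 200 most abundant genes of any single library. The smallest number was in top library 3 and the largest in middle library 1. In top library 3 the lowest-ranked of them stood at rank 1307, whereas in bottom library 3 it stood at rank 326.

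Together, the 120 genes took 4.39% to 5.54% of all counts in a library. They held 4.76 ± 0.64% of all counts in the top libraries, 4.89 ± 0.47% in the middle ones and 5.48 ± 0.10% in the bottom (SD, n = 3). The top libraries held 5.50%, 4.40% and 4.39%, the middle libraries 4.77%, 4.49% and 5.42%, and the bottom libraries 5.52%, 5.36% and 5.54%. The bottom libraries were alike, and top library 1 lay within their range. As a share of summed FPKM, which gives short genes more weight, the 120 genes held 8.94 ± 1.33%, 9.40 ± 0.89% and 10.4 ± 0.34% in top, middle and bottom (SD, n = 3). The other 80 of the 200 held 2.60 ± 0.49%, 2.80 ± 0.31% and 2.91 ± 0.05% of counts in the 3 positions (SD, n = 3).

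Libraries of a position differed in how much of the group was high. In top library 1, 61.7% of the 120 genes were above their own 9-library mean, against 33.3% and 36.7% in top libraries 2 and 3. In the middle, the shares were 29.2%, 23.3% and 56.7%, and in the bottom 67.5%, 53.3% and 54.2%. Top library 1 was the highest of the 9 libraries for 26 of the genes, more than any other library, and middle library 2 was the lowest for 32. The median gene of the 120 stood at 0.12 relative to its mean on the log2 scale in top library 1 and at -0.24 in middle library 2. Over the 45083 genes with a mean above 1 FPKM, the same medians were -0.04 and -0.15. The part of the library as a whole in these shifts was not tested.

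**Figure D3:**
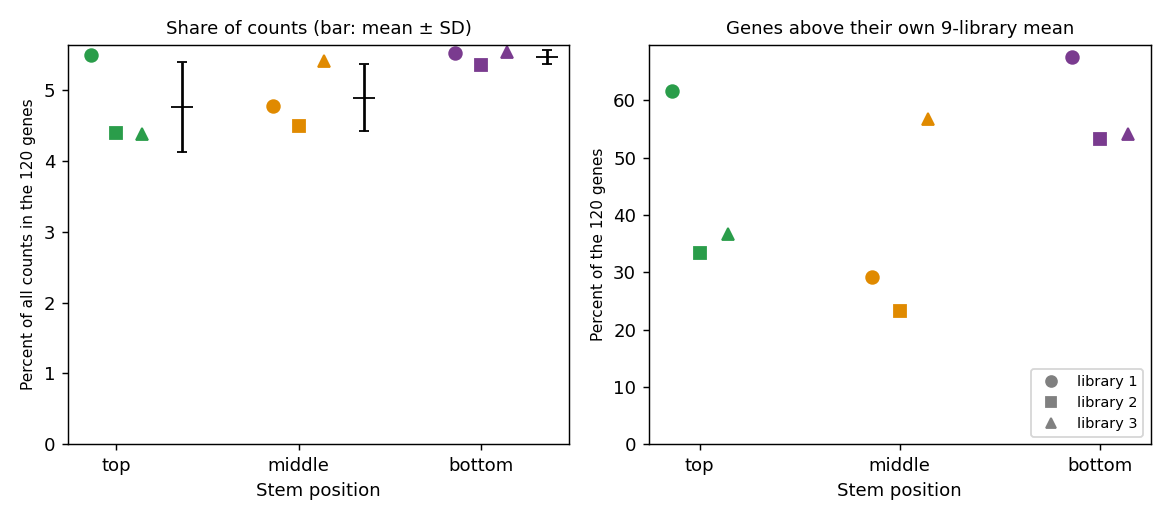
Left, percent of all counts taken by the 120 genes in each library, with the mean and SD of 3 libraries per position; right, percent of the 120 genes above their own mean over 9 libraries. The bottom libraries lie together at 5.36% to 5.54% of counts, and top library 1, at 5.50%, lies apart from the other top libraries.

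Within the limit on the ratio, the order of the positions differed between genes. Of the 120 genes, 64 had their highest mean in the bottom, 44 in the top and 12 in the middle. The lowest mean was in the top for 55, in the middle for 50 and in the bottom for 15. A steady rise from top through middle to bottom was seen in 48 genes, with a median ratio of 1.5, and a steady fall in 10, with a median ratio of 1.41. In 34 genes the top was highest and the middle lowest, and in 16 the bottom was highest and the middle lowest. The middle mean was the highest in 10.0% of the 120 genes, in 26.2% of the other 80 of the 200 and in 18.7% of all genes with a mean above 1 FPKM. In the same sets the bottom was highest in 53.3%, 43.8% and 42.4%, and the top in 36.7%, 30.0% and 38.9%. Of the 45083 genes above 1 FPKM, 14711 rose steadily and 7620 fell steadily.

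In FPKM, 98 of the 120 genes had a higher mean in the bottom than in the middle, with a median log2 difference of 0.13. Over all 45083 genes with a mean above 1 FPKM, that median was 0.07 on log2(FPKM + 1). After TMM scaling, which brings libraries to a common level through a trimmed mean of log ratios, 84 were higher and the median over the 120 was 0.08. Between bottom and top, 71 were higher in the bottom in FPKM and 67 after TMM scaling. Between middle and top, 60 were higher and 60 lower in FPKM, and 56 higher and 64 lower after TMM scaling. With FPKM rescaled to a common total per library, 67 were higher and 53 lower. The direction between middle and top was thus evenly split in FPKM and changed sides with the scaling. The surplus of genes higher in the bottom than in the middle was smaller after TMM scaling.

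All 120 genes passed the filter on low counts and entered edgeR's quasi-likelihood model of the read counts. An F test over the 3 positions called 15 of them at an adjusted p under 0.05, where 22.1% of the 52436 genes tested were called. Between middle and top, 5 were called higher and 12 lower in the middle, where 8.2% of all genes were called higher and 10.4% lower (18.6% in all). Between bottom and top, 10 were called as higher in the bottom and 12 as lower, where the shares over all genes were 12.1% higher and 15.1% lower (27.3% in all). Between bottom and middle, edgeR called none of the 120, where 0.811% of all genes were called, 0.0153% as higher and 0.795% as lower in the bottom. There, 6.67% of the 120 genes (8) and 8.18% of all genes had an unadjusted edgeR p under 0.05. DESeq2 called 3.33% of the 120 (4) and 3.37% of all genes, and limma called none of the 120 and 0.261% of all genes. The rule bounds these same contrasts, so the counts describe the members and no more is read from them.

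The counts depended on single libraries, and so did the share called over all genes. The F test called 13 and 12 of the 120 when library 1 of the top or of the middle was left out. It called 3 and 4 without top library 2 or 3, 7 without middle library 2, and 9 without middle library 3. It called 5, 4 and 8 without bottom library 1, 2 or 3. Over all genes it called 12.4% to 21.0% in these 9 fits. Between middle and top, 13 and 12 were called without top library 1 or middle library 1, 6 and 4 without top library 2 or 3, and 3 and 5 without middle library 2 or 3. The same contrast gave 7, 9 and 8 without bottom library 1, 2 or 3, and 11% to 17.2% over all genes in the 9 fits. Between bottom and top, 25 were called without top library 1, and 20, 23 and 18 without middle library 1, 2 or 3. There, 10 and 9 were called without top library 2 or 3, and 9, 6 and 9 without bottom library 1, 2 or 3, with 15.0% to 28.2% over all genes.

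Between top and middle, the 3 same-numbered pairs of libraries deviated together, with correlations of 0.149 to 0.355. Differently numbered pairs of these positions were at -0.248 to 0.035. Deviations from a position mean cancel out over its 3 libraries, so positive same-numbered correlations force the others down. The contrast between them is therefore no separate evidence of pairing. Between top and bottom, differently numbered pairs reached 0.202, so such correlations alone do not show that a number marks 1 plant. With the number as a replicate block, 9 of the 120 genes were called between middle and top in place of 17, where 16.8% of all genes were called in place of 18.6%.

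A call depends on the position difference relative to the spread, so the following values only describe the genes called. The 15 called in the F test had position ratios of 1.44 to 2.00 and a within-position coefficient of variation of 7.6% to 14.8%, with a median of 11.6%. The 105 others had a median ratio of 1.38 and a median coefficient of variation of 20%. Of the genes called between middle and top, 13 of 17 were also called between bottom and top (13 of 22), and these contrasts share the top libraries.

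Between middle and top, the largest called rise was that of Pop_G14G088932. It had 332.6, 347.1 and 462.7 FPKM in the middle and 276.5, 204.1 and 173.0 in the top, a fitted log2 fold change of 0.78 (standard error 0.24). The largest called fall was that of Pop_G02G024172, with 455.6, 362.1 and 395.6 FPKM in the middle against 831.2, 786.2 and 618.0 in the top, a log2 fold change of -0.91 (standard error 0.21). Neither gene overlapped between the positions. In the bottom, Pop_G02G024172 lay above its middle libraries, at 568.3, 655.2 and 469.2 FPKM. Pop_A01G075803 (log2 fold change 0.69, standard error 0.20) and Pop_A07G085235 (-0.85, standard error 0.25) came next in each direction. Several of these calls rested on single libraries. That of Pop_G02G024172 was lost without top library 2 or without middle library 2 or 3. That of Pop_G14G088932 was lost without top library 2 or 3, middle library 2 or 3, or any bottom library. That of Pop_A01G075803 held only without middle library 1, and that of Pop_A07G085235 only without top library 2, among the 9 fits that left out a library. In those 9 fits the log2 fold change of Pop_A01G075803 was 0.62 to 0.87 and that of Pop_A07G085235 was -1.0 to -0.60. With the replicate block, Pop_G14G088932 (0.81), Pop_A01G075803 (0.69) and Pop_A07G085235 (-0.85) lost their calls, with adjusted p of 0.074, 0.068 and 0.068 by edgeR's quasi-likelihood test with Benjamini-Hochberg adjustment, and Pop_G02G024172 kept its call. Over all alternatives the log2 fold changes ranged from 0.51 to 1.14 for Pop_G14G088932 and from -1.0 to -0.80 for Pop_G02G024172.

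Between bottom and top, Pop_G10G006095 had the largest called rise, at a log2 fold change of 0.93 (standard error 0.20). Pop_G08G057759 had 338.9, 312.3 and 314.8 FPKM in the bottom against 179.0, 147.4 and 175.4 in the top (log2 fold change 0.88, standard error 0.16). Its middle libraries lay between, at 236.8, 268.7 and 310.1 FPKM, and no 2 positions overlapped. The largest called fall was that of Pop_A11G056586, with 411.7, 595.0 and 426.2 FPKM in the bottom and 655.9, 912.2 and 855.7 in the top (log2 fold change -0.83, standard error 0.25). Pop_G01G002852 had 275.5, 300.4 and 285.9 FPKM in the bottom and 481.2, 452.9 and 519.3 in the top (-0.82, standard error 0.17). Its bottom libraries were close together and far below its top libraries. Leaving out single libraries ended no call of Pop_G10G006095, Pop_G08G057759 or Pop_G01G002852. Leaving out all libraries of a number did. Pop_G10G006095 and Pop_A11G056586 then lost their calls without number 1, 2 or 3. Pop_G08G057759 lost its call without number 2 or 3, and Pop_G01G002852 without number 1 or 3. In limma, only Pop_G08G057759 of these genes kept its call. With the replicate block, only Pop_A11G056586 lost its call. Pop_A11G056586 lost its call without top library 2 or 3, middle library 1 or 3, or bottom library 1 or 3, and its log2 fold change ranged from -1.03 to -0.69 over all alternatives.

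At the flat end, Pop_G01G002752 had 373.2 ± 58.2, 350.0 ± 102.9 and 351.0 ± 23.2 FPKM in top, middle and bottom (SD, n = 3), a ratio of 1.07. Pop_G05G072180 had 348.0 ± 83.2, 323.1 ± 39.5 and 334.4 ± 5.0 FPKM (SD, n = 3), a ratio of 1.08. The position means of Pop_G05G072180 all lay within the range of its top libraries, 289.6 to 443.3 FPKM. Its bottom libraries lay closer together, at 331.2 to 340.2 FPKM. The position means of Pop_G01G002752 all lay within the range of its middle libraries. Pop_G01G002752 ranged from 249.2 to 454.8 FPKM within the middle alone.

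Spread between libraries of a position is not limited directly by the rule. A wide spread can still move position means apart, so the spread of the kept genes is not independent of the choice. Over the 120 genes the within-position coefficient of variation had a median of 18.9%, with quartiles of 12.6% and 30.6%. The median was 42.3% in the other 80 of the 200, 20.6% over all 942 genes above 100 FPKM and 18.7% over all genes with a mean above 1 FPKM. In 9 of the 120 genes it was under 10%, and in 14 it was over 40%. The highest library exceeded the lowest by less than 2 times in 55 of the 120 genes and by more than 3 times in 23. The limit on position means therefore did not make these genes even across libraries.

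The widest spread was that of Pop_G06G066431, at 67.3%. It had 1542.1, 175.9 and 434.9 FPKM in the top libraries, 1087, 667.2 and 416.1 in the middle ones and 1023, 1574 and 822.0 in the bottom. Its highest library, bottom library 2, was 8.95 times its lowest, top library 2, although its position means differed by 1.59 times. Pop_G09G051131 came next, at 56.0%. The narrowest spread was that of Pop_A09G083686, at 4.7%, with 257.9, 264.3 and 233.8 FPKM in the top libraries, 279.1, 272.1 and 282.5 in the middle ones and 326.2, 303.8 and 299.5 in the bottom. Its positions did not overlap, with the top lowest and the bottom highest, at a ratio of 1.23. Pop_A05G057122 was next narrowest, at 7.5%, with 357.2 ± 31.4, 426.8 ± 5.4 and 418.6 ± 39.9 FPKM in top, middle and bottom (SD, n = 3).

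To see how the choice carries over to libraries it did not use, the same rule was applied to 6 libraries and the ratio of the highest to the lowest of the 3 left-out libraries was then taken. Without the libraries numbered 1, the rule kept 105 genes, of which 97 (92.4%) stayed under a ratio of 2 in those 3 libraries. Of all 937 genes above 100 FPKM in the same 6 libraries, 68.5% did so. Without the libraries numbered 2, 138 genes were kept, and 88 of them (63.8%) stayed under 2, against 46.2% of 950 genes. Without the libraries numbered 3, 121 were kept, and 89 (73.6%) stayed under 2, against 53.8% of 946 genes. The share was thus higher in the kept genes each time, and it varied widely with the libraries used to look. The largest ratio among kept genes was 4.22, 18.5 and 10.2 in the 3 rounds. With 1 left-out library per position, these shares have no error.

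**Figure D4:**
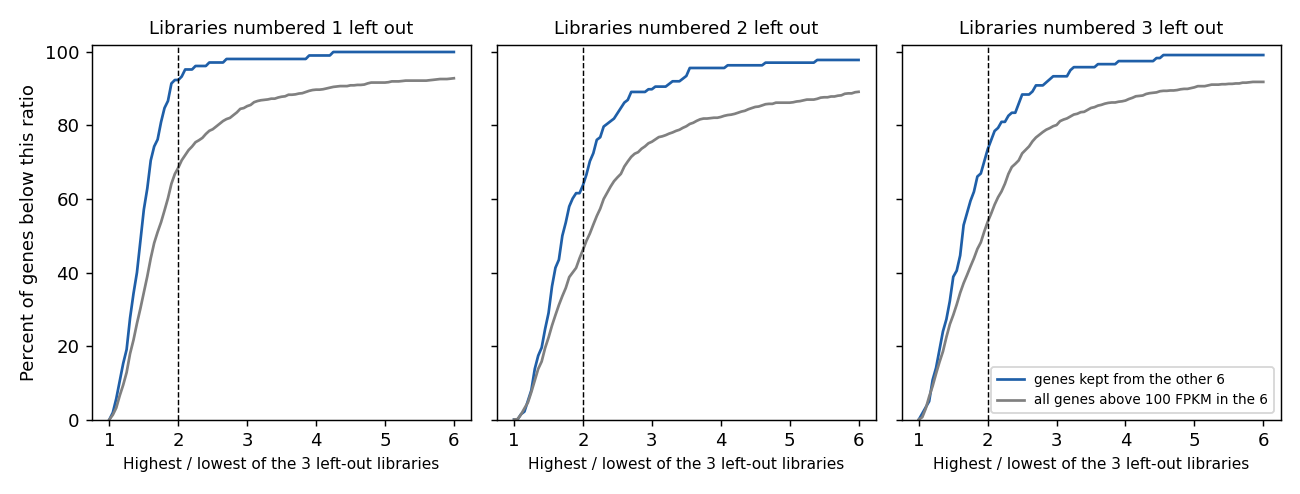
Cumulative percent of genes below a given ratio of the highest to the lowest of the 3 left-out libraries (1 per position), for genes kept by the rule on the other 6 libraries (blue) and for all genes above 100 FPKM in those 6 (grey). At the dashed limit of 2 the blue line stands at 92.4%, 63.8% and 73.6% and the grey line at 68.5%, 46.2% and 53.8%.

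The gene lengths behind the FPKM values were recovered from counts and FPKM as whole numbers of bases, and the rule did not use them directly. The 120 genes had a median length of 570 bases with quartiles of 400 and 1064 bases. The median was 484 bases in the other 80 of the 200 and 1515 bases over the 45083 genes with a mean above 1 FPKM. Lengths under 1000 bases were found in 72.5% of the 120 genes and 28.0% of that background. They made up 78.8% of the other 80 and 67.9% of all 942 genes above 100 FPKM. For 95 of the 120 genes (79.2%) the length was a multiple of 3. This share was 77.5% in the other 80, 75.9% in the 942 genes and 61.4% in the background above 1 FPKM. Whole lengths were checked only in shorter genes above 100 FPKM, 697 to 993 per library. Most background lengths were thus rounded without this check, and the effect on their share was not tested. Division by length raises short genes in a ranking by FPKM, and 64 of the 120 genes were also among the first 200 by CPM, the count scaled to the library total alone.

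The shortest member, Pop_A01G081141, was 183 bases long. It had 276.8 ± 88.0, 301.6 ± 129.4 and 325.3 ± 46.7 FPKM in top, middle and bottom (SD, n = 3) and stood only at rank 3503 by CPM. The longest, Pop_G03G014550, was 2879 bases long, with 418.4 ± 56.9, 600.2 ± 85.0 and 596.4 ± 11.3 FPKM (SD, n = 3). By CPM, Pop_A09G014532, of 709 bases, was the first gene of the whole table, at a mean of 1641. Pop_A04G028413, of 264 bases, was at rank 4 and Pop_G09G014110, of 237 bases, at rank 11.

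**Figure D5:**
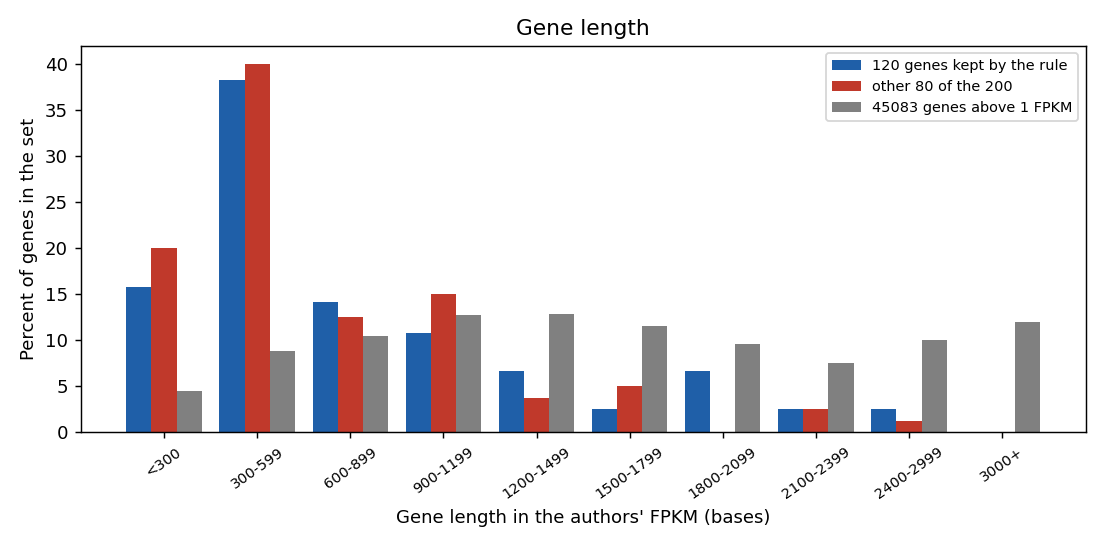
Percent of genes in each class of gene length, as used in the authors' FPKM, for the 120 genes (blue), the other 80 of the 200 (red) and the 45083 genes with a mean above 1 FPKM (grey). Of the 120 genes, 72.5% are shorter than 1000 bases, against 78.8% of the red set and 28.0% of the grey set.

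By label, 67 of the 120 genes were of class G, 53 of class A and none of class Un. Class G made up 55.8% of the 120 genes, 48.8% of the other 80 of the 200 and 48.7% of all genes with a mean above 1 FPKM. Class Un made up 1.7% of that background. The class G genes held 58.6 ± 1.4%, 56.7 ± 2.6% and 57.3 ± 1.5% of the summed FPKM of the 120 genes in top, middle and bottom (SD, n = 3). These shares differed between positions by less than 1 SD of the middle libraries. The 2 classes had similar median levels, at 359.5 FPKM for class G and 373.4 FPKM for class A.

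The letter and number that follow the prefix form 38 label groups, and the 120 genes fell into 33 of them. Label groups G06 and G10 held 9 genes each and G01 held 8. These were 0.52%, 0.58% and 0.31% of the genes above 1 FPKM with those labels, against 0.68% in A09, where 7 genes fell.

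Among the 120 genes, 6 pairs had identifiers whose last 6 digits differed by at most 5 within a label group. Pop_G10G047987 and Pop_G10G047989, both among the 10 most abundant, ran closely together, with a correlation of log2 FPKM of 0.97 over the 9 libraries. Pop_A09G014532 and Pop_A09G014535 did not, with a correlation of 0.02 and means of 2333 and 725 FPKM. The files do not say whether close numbers mean close genes. Reads shared between similar copies could not be examined either, so levels of such pairs are uncertain.

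Over all 7140 pairs of the 120 genes, the correlation of log2 FPKM across the 9 libraries had a median of 0.13, with quartiles of -0.27 and 0.47. In the other 80 of the 200 the quartiles were -0.61 and 0.71. All pairs share the same libraries, library totals and positions, so these values are a description. There were 86 pairs above 0.9 and 18 below -0.9. The 120 genes thus did not move as a single block.

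The most alike pair was Pop_G01G074581 and Pop_A01G079914, at 0.997. Pop_G01G074581 had 354.5, 472.0 and 301.1 FPKM in the top libraries, 299.0, 190.3 and 341.7 in the middle ones and 191.0, 230.8 and 448.9 in the bottom. Pop_A01G079914 had 332.8, 418.2 and 287.8, then 275.3, 175.9 and 324.4, then 172.8, 206.3 and 416.7 FPKM in the same libraries. Both were high in top library 2 and bottom library 3 and low in middle library 2 and bottom library 1, so they followed libraries and not positions. Their lengths were 1497 and 1359 bases.

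The most opposed pair was Pop_G03G014550 and Pop_G12G008934, at -0.98. Pop_G03G014550 had 362.1, 475.8 and 417.2 FPKM in the top libraries and 509.8 to 678.6 FPKM in the 6 lower libraries. Pop_G12G008934 had 740.3, 571.4 and 713.6 FPKM in the top libraries and 380.7 to 525.8 FPKM in the 6 lower libraries. In both, the top libraries stood apart from the others, on opposite sides.

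Among the 10 most abundant genes, some pairs shared a library pattern, a reading made after their values were seen. Pop_A04G028413 and Pop_G09G077661 had a correlation of 0.95 and were both highest in middle library 3. Pop_G09G014110 and Pop_A09G014532 had a correlation of 0.87 and were both highest in top library 1. Between Pop_A04G028413 and Pop_G09G014110 it was -0.31. Pop_G10G047987 and Pop_G10G047989, at 0.97, were both highest in bottom library 1. Their correlations with Pop_A04G028413 were -0.01 and 0.13, and those with Pop_G09G014110 were 0.48 and 0.45. These 10 genes, the most abundant of those kept by the rule, therefore differed in which library was high.

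Equal gene length was also seen across label classes. Of the 120 genes, 4 pairs of a class A and a class G gene had the same length and a correlation above 0.87, picked out after their values were seen. Pop_G09G014011 and Pop_A09G014535, both of 507 bases, had a correlation of 0.96 and means of 907 and 725 FPKM. Pop_A16G090202 and Pop_G06G051571 (447 bases) were at 0.95, and Pop_G06G051464 and Pop_A06G079354 (1077 bases) at 0.93. Pop_A02G088549 and Pop_G02G065826 (480 bases) were at 0.87. The other equal-length pairs across classes had correlations from -0.93, in Pop_A12G068081 and Pop_G01G029464 (1882 bases), to 0.22, in Pop_G14G044102 and Pop_A03G050422 (411 bases). Within a class, equal-length pairs ran from -0.64 to 0.92, the highest being Pop_G09G077661 and Pop_G08G057759 (504 bases). Whether any of these pairs are copies of a gene was not tested.

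The F test called 50 of the 80 abundant genes that the rule left out, where 22.1% of all genes tested were called. These 80 were left out for differences in the same position means, so no more is read from this count. The largest ratio was that of Pop_A08G002455, at 1024, with 2160, 408.2 and 26.2 FPKM in the top libraries and at most 7.9 FPKM in any lower library. Pop_A13G010041 had 925.3 ± 135.9, 10.6 ± 15.4 and 1.30 ± 1.20 FPKM in top, middle and bottom (SD, n = 3). In both genes the mean over 9 libraries came almost wholly from the top. Pop_A13G010041 still had at least 26 counts in every library, and each of the 120 genes had at least 1212. Such coverage of the 120 genes is favoured by the choice itself.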

How the data were processed

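Read counts per gene were taken as the authors deposited them. Every count is even, which was read as both mates of a pair being counted but was not tested. The deposited FPKM table was made by the authors from those counts. Gene lengths came out as whole bases within 0.05 base in the shorter genes above 100 FPKM that were checked, and others were rounded. Per the submitters' processing notes, Trimmomatic 0.36 and HISAT2 were used. For the counter, the strand setting, the genome build and the annotation, the sources used here give nothing. Reads shared by similar copies and overlapping genes could not be examined. There were 0 columns of other samples.

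From the FPKM values, the rule was applied to the mean over 9 libraries. The quasi-likelihood test of edgeR 4.0.16 (R 4.3.3) was run on the deposited counts with TMM scaling, after filterByExpr with a minimum count of 10, in 1 model over the 3 positions with 3 libraries each. Benjamini-Hochberg adjustment covered all 52436 genes tested, and the threshold was 0.05. limma 3.58.1 on log2(FPKM + 1) and DESeq2 1.42.0 were alternatives, as were upper quartile scaling, no filter, halved counts, a replicate block and leaving out libraries. The correlations are Pearson's r of log2 FPKM over 9 libraries. As a working cut, library numbers were treated as pairing 2 positions where all 3 same-numbered correlations of deviations from the position means were over 0.1. This was so between top and middle (0.149 to 0.355) and for no other positions. Intervals for single counts cover counting error only.

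The members and lists were chosen with earlier results of these data known. Genes named are the 10 most abundant, those with the lowest ratio, the widest and narrowest spread, the shortest and longest, those at the limits, the 2 most changed in each direction among those called in a comparison, and the most alike and most opposed pairs. Others are said to be chosen after their values were seen. No table of gene names was given, so lists by gene product and cell type markers were not used.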

Additional observations from a re-analysis of the deposited data

How the results depend on the processing

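The set depended on the rule. It held 55 genes when 100 were taken, 299 when 500 were taken and 72 at a ratio limit of 1.5. It held 106 to 136 genes without 1 library and 105 to 138 without 1 library number. In all 9 rounds without 1 library, 91 genes stayed in it, and 91 stayed in all 3 rounds without 1 number. Whether these were the same genes was not examined. The share of FPKM in place of counts was 8.94%, 9.40% and 10.37% in top, middle and bottom. Without 1 library the share of counts was 4.39% to 4.95% in the top, 4.63% to 5.09% in the middle and 5.44% to 5.53% in the bottom.

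DESeq2 called 42 of the 120 genes over the 3 positions, 33 between middle and top, 4 between bottom and middle and 42 between bottom and top, against 34.3%, 27.2%, 3.37% and 36% of all genes in these comparisons. As a share of the 120 this was 35%, 27.5%, 3.33% and 35%. limma called 1, 0, 0 and 3 in the same order, against 16.5%, 14.2%, 0.261% and 20.8% of all genes. Without a filter on low counts, 9 were called between middle and top, against 14.1% of all genes. Without 1 library, the calls ranged from 3 to 13 over the 3 positions, from 3 to 13 between middle and top and from 6 to 25 between bottom and top. Without 1 library number they ranged from 0 to 6, from 0 to 6 and from 0 to 7, as 6 libraries then remained. The cause of the other differences was not tested. Between bottom and middle, edgeR called 0 of the 120 under every edgeR alternative run.

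With the library number as a replicate block, 11 genes were called over the 3 positions, 9 between middle and top, 0 between bottom and middle and 15 between bottom and top, against 19.4%, 16.8%, 0.807% and 25.5% of all genes. The cut of 0.1 was met between top and middle, but not between bottom and either. Over all positions, 4 of 9 correlations between same-numbered libraries were over 0.1 (range -0.192 to 0.355). So were 3 of 6 between differently numbered top and bottom libraries. Of the 9 libraries, 5 correlated best with their own number. The planned test of the replicate number, which required all 9 to be over 0.1, was therefore not run. Of 144 alternative values for the 8 genes named as called, 69 lost the call and none changed sign. With 3 libraries a position, an exact test of a single gene between positions cannot give a p under 0.1.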
